A study of Mus musculus with 40 samples.

Results

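The RNA response of mouse macrophages to Toll-like receptor 4 stimulation for 1 hr was measured in 4 RNA-Seq libraries of the 40 samples in the series. The cells were peritoneal macrophages elicited with thioglycollate broth, which recruits monocytes to the abdominal cavity, and kept as adherent cells in culture overnight. The groups were KLA 1 hr (100 ng/ml of Kdo2-lipid A, KLA, in fresh medium, 1 library from C57BL6/J and 1 from BALBc/J) and no treatment (fresh medium alone, 1 library from C57BL6/J and 1 from BALBc/J). C57BL6/J and BALBc/J are inbred strains, and the labels give no allele or transgene, no age and no sex. Whether libraries stem from separate or pooled animals is not in the labels. A p-value here measures just the spread among libraries that is left after treatment and strain are fitted, and that spread may be technical. With 1 library per strain and treatment, it also holds any difference of response between the strains. The KLA 4 hr libraries named below enter it too. Libraries were paired by strain, and values in a pair below are given with C57BL6/J before BALBc/J. Levels are tags in exons, of polyadenylated RNA, scaled to 10000000 per library (10 M) and called tags for short. They are not corrected for transcript length. Of 22865 genes in the expression table, 10715 reached 20 tags in at least 2 of 6 RNA-Seq libraries (the 4 above and a KLA 4 hr library of each strain) and were tested, and the other 12150 were not.

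KLA contains the lipid A part of lipopolysaccharide, the outer membrane glycolipid of gram-negative bacteria. CD14 and MD-2 hand it to Toll-like receptor 4, whose adaptors activate MAP kinases and the IkB kinases. IkB kinases mark the inhibitor IkBa for destruction, so that NF-kB dimers holding p65 enter the nucleus. MAP kinases act on serum response factor, CREB and AP-1 proteins, which bind the CArG box, the CRE and the AP-1 site of immediate early genes. Another branch, through the adaptor TRIF, leads to interferon beta. Within an hour, primary response genes can be transcribed without new protein, and many of them encode cytokines, inhibitors of the pathway itself and factors that destroy cytokine messages.

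The 4 libraries held 17.0 to 19.2 M tags each, with 88.8 to 90.1% in exons. All 8 defining macrophage markers were tested and none was called. Lyz2 (lysozyme) was at 41297 and 55532 tags in KLA libraries and 45672 and 52700.1 tags in untreated libraries. Emr1 (F4/80) was at 3181 and 1678 tags in KLA libraries and 3054 and 2240.4 tags in untreated libraries. Itgam, Mertk and Csf1r were lower in the KLA library of each strain, with fitted log2 changes of -0.63, -0.58 and -0.54. Those of Lyz2, Emr1, Cd68, Sfpi1 and Fcgr1 were -0.03, -0.18, 0.11, 0.007 and -0.004. The 3 T cell markers summed to 2 and 5 reads in KLA libraries and 0 and 1 in untreated libraries, and the 2 NK cell markers to 1 and 2 reads in KLA libraries and 0 and 1 in untreated libraries. The 3 B cell markers summed to 26.3 and 30.5 tags in KLA libraries and 27.6 and 48.5 tags in untreated libraries. Of the neutrophil markers, 4 were in the table and summed to 212 and 129 tags in KLA libraries and 136 and 79.0 tags in untreated libraries, nearly all of it S100a8. The 4 mast cell markers summed to 34.9 and 41.2 tags in KLA libraries and 30.6 and 50.3 tags in untreated libraries. The 2 eosinophil markers in the table, Prg2 and Epx, summed to 0 and 0 reads in KLA libraries and 2 and 0 in untreated libraries. The 6 markers of mesothelial cells and fibroblasts summed to 1503 and 3299 tags in KLA libraries and 2115 and 3717 tags in untreated libraries. Mesothelial and fibroblast markers were thus present in every library. Their sum was lower in the KLA library of each strain, mainly through Col1a1 (154 and 336 tags with KLA and 358 and 529 without) and Col1a2 (424 and 802 tags with KLA and 946 and 1168 without), whereas Dcn was higher (839.9 and 1968 tags with KLA and 700.2 and 1773.5 without). The S100a8 level was higher in the KLA library of each strain. None of the tested markers of other cells passed the test, although of a wider list of 14 markers of mesothelial cells and fibroblasts 2 were lower without the C57BL6/J KLA library and 3 without the BALBc/J untreated library. The part of these cells in the results below was not tested. In such bulk samples, fewer cells of a type and less RNA per cell cannot be told apart.

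After 1 hr, 195 genes were higher and 155 lower, which is 1.82% and 1.45% of all genes tested. Calls required an adjusted p under 0.05 (limma, Benjamini-Hochberg over 10715 genes) and a fitted change of at least 1 in log2(tags + 10), and errors beside log2 changes are standard errors of that fit with 2 libraries per treatment. The increases were larger than the decreases: 24 genes rose by 4 or more on the log2 scale, 67 by 2 to 4 and 104 by 1 to 2, while 5 genes fell by 2 or more and 150 by 1 to 2. The calls rest on these same libraries, so shared direction and lack of overlap, here and below, describe the called genes and are no separate support. Every called gene moved in its direction in both strains. Both KLA libraries lay above both untreated libraries in 191 of the 195 genes (8.54% of all genes tested) and below them in 154 of the 155 (42.5% of all genes tested).

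The whole distribution was shifted, since the median gene had a fitted change of -0.21. The genes called higher took up 10.0 and 10.6% of the KLA libraries and 1.43 and 1.55% of the untreated libraries, and the part of this in the shift was not tested. Relative to the median gene of each library, 242 genes were higher (2.26%) and 77 lower (0.719%). The lower count also hung on single libraries: it was 574 without the C57BL6/J KLA library and 77 without the C57BL6/J untreated library, while the higher count stayed between 179 and 224 when any of the 4 libraries was left out.

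**Figure D1:**
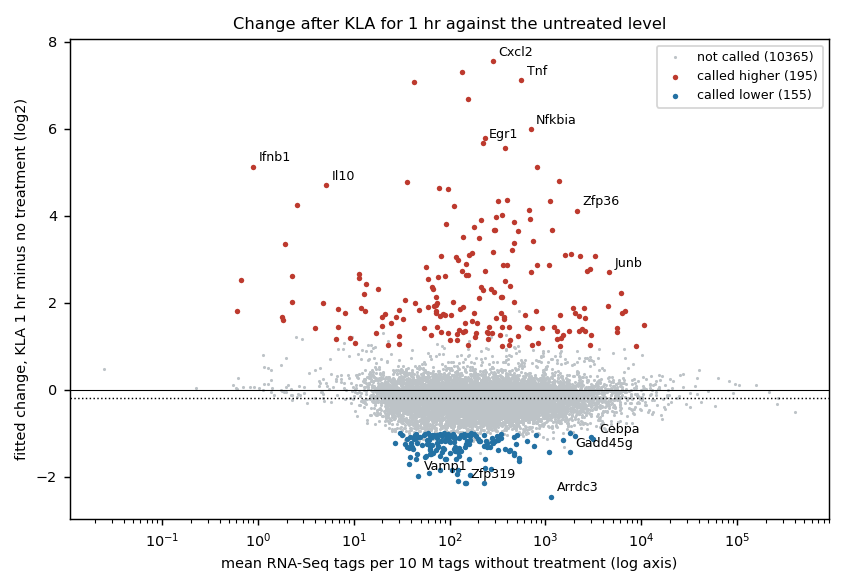
Fitted log2 change (KLA 1 hr minus no treatment, vertical axis) of the 10715 tested genes against their mean untreated level in tags per 10 M (horizontal log axis). Each point is a gene, red for the 195 called higher and blue for the 155 called lower, and the dotted line marks the median gene at -0.21; increases reach 7.55 and decreases -2.47.

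The 3 largest increases were those of Cxcl2, Cxcl1 and Tnf. Cxcl2, a chemokine that draws neutrophils, was at 53424.5 and 55922.5 tags in KLA libraries and 267 and 297 tags in untreated libraries, a fitted change of 7.55 ± 0.25 (adjusted p = 1.77e-06) or 187-fold. Cxcl1, its close relative in the same cluster on chromosome 5, was at 16799 and 29744 tags in KLA libraries and 107 and 160.1 tags in untreated libraries, a change of 7.31 ± 0.20 (adjusted p = 8.66e-07). Tnf, the cytokine tumour necrosis factor, was at 81654 and 75374 tags in KLA libraries and 516 and 603 tags in untreated libraries, a change of 7.11 ± 0.18 (adjusted p = 8.37e-07). In each of these genes the KLA libraries of both strains stood far above the untreated ones, with no overlap. Tnf was also the gene that gained the most tags, 77954 on average, ahead of Cxcl2 with 54391.5, neither corrected for length.

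Among the 20 tested interleukins and colony stimulating factors, 10 were higher and none lower, with a median change of 1.29 against -0.21 for all genes. Il1b, the gene of the fever-inducing cytokine interleukin 1 beta, was at 10676 and 16975 tags in KLA libraries and 225 and 248 tags in untreated libraries, a change of 5.78 ± 0.24 (adjusted p = 6.68e-06). Il1a, its neighbour on chromosome 2, was at 25897 and 31106 tags in KLA libraries and 676 and 955 tags in untreated libraries, a change of 5.13 ± 0.16 (adjusted p = 1.47e-06). Neither gene overlapped between the treatments. Il10, the main anti-inflammatory cytokine of macrophages, was at 439 and 333 tags in KLA libraries and 3.67 and 6.69 tags in untreated libraries, a change of 4.70 ± 0.22 (adjusted p = 1e-05). Il23a, the p19 subunit of interleukin 23, was at 223 and 227 tags in KLA libraries and 1.20 and 3.91 tags in untreated libraries, a change of 4.24 ± 0.25 (adjusted p = 3.7e-05). Il10 and Il23a thus had only a few reads in the untreated libraries, and with the pseudocount of 10 the fitted change of such genes understates the ratio of tags. Il6, a cytokine of the acute phase response, rose by 2.20 ± 0.42 (adjusted p = 0.0255), and Csf2, the growth factor GM-CSF, by 2.52 ± 0.28 (adjusted p = 0.00187). Gm14023, a predicted gene that overlaps Il1a, rose by 4.61 ± 0.17 (adjusted p = 4.05e-06), and since the sources used here do not state whether counting used strand, its tags and those of Il1a cannot be told apart. The same holds for Il1b with Gm14047, Cxcl10 with Art3, Tnfsf9 with Gm11110 and Nfkb2 with Psd.

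Of 12 tested CXC chemokines, 5 were higher, and of 11 CC chemokines, 5 were higher; none was lower in either list, and their medians were 0.60 and 1.12. Ccl4, which attracts monocytes and lymphocytes, was at 13406.5 and 25118 tags in KLA libraries and 351 and 412 tags in untreated libraries, a change of 5.56 ± 0.28 (adjusted p = 1.55e-05). Ccl3, another inflammatory CC chemokine, was at 6556 and 10318 tags in KLA libraries and 341 and 446 tags in untreated libraries, a change of 4.36 ± 0.24 (adjusted p = 2.39e-05). Ccl2 and Ccl7, ligands of the monocyte receptor CCR2, rose by 3.21 ± 0.18 (adjusted p = 3.1e-05) and 3.06 ± 0.25 (adjusted p = 0.000291). Cxcl10, which attracts T cells through CXCR3, was at 1619 and 1169 tags in KLA libraries and 317 and 227 tags in untreated libraries, a change of 2.32 ± 0.26 (adjusted p = 0.00169). Cxcl3 rose by 1.87 ± 0.32 (adjusted p = 0.0155) at only 75.2 and 64.9 tags in KLA libraries and 10.5 and 13.1 tags in untreated libraries. The CC count was 8 without the C57BL6/J KLA library. Of 11 chemoattractant receptors, Ccrl2, a decoy-like receptor of chemerin, rose by 3.07 ± 0.18 (adjusted p = 3.97e-05) and C5ar1, the receptor of complement C5a, by 1.35 ± 0.18 (adjusted p = 0.00488).

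In the TNF ligand family, 2 of 8 tested members rose, Tnf and Tnfsf9, and the family median was 0.27. Tnfsf9, the 4-1BB ligand that co-stimulates T cells, was at 9107 and 5366 tags in KLA libraries and 41.7 and 42.8 tags in untreated libraries, a change of 7.07 ± 0.22 (adjusted p = 1.48e-06).

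**Figure D2:**
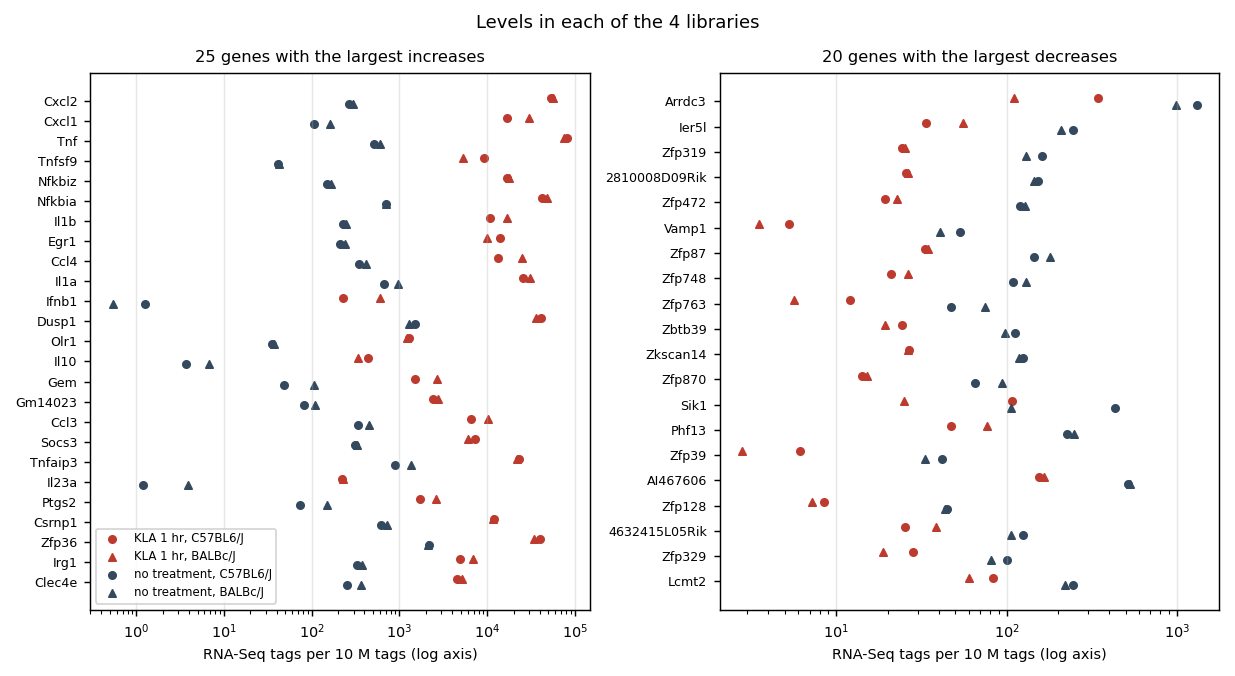
Level of each of the 25 genes with the largest increases (left) and the 20 genes with the largest decreases (right) in the 4 libraries, in RNA-Seq tags per 10 M on a log axis. Each point is 1 library, red for KLA 1 hr and dark for no treatment, circles for C57BL6/J and triangles for BALBc/J; red and dark points overlap only in Sik1, where C57BL6/J with KLA (108 tags) stood just above BALBc/J without treatment (106 tags).

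Genes of the IkB family, which holds the inhibitors of NF-kB, rose as a group: 5 of 6 tested members were higher and the median change was 3.19. Membership does not mean that each protein inhibits NF-kB. Nfkbia, which encodes IkBa and so replaces the protein that the IkB kinases destroy, was at 42196 and 48102 tags in KLA libraries and 698 and 704 tags in untreated libraries, a change of 5.99 ± 0.17 (adjusted p = 1.24e-06). Nfkbiz, the nuclear IkB protein IkB-zeta, was at 16822 and 17548 tags in KLA libraries and 148 and 164 tags in untreated libraries, a change of 6.69 ± 0.17 (adjusted p = 8.37e-07). Nfkbid, another nuclear IkB protein, rose by 3.75 ± 0.22 (adjusted p = 3.97e-05), and Nfkbie, a cytoplasmic one, by 2.63 ± 0.17 (adjusted p = 7.43e-05). The 5 calls held when any single library was left out. Bcl3, the member not called, had a fitted change of 0.74 ± 0.18.

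Of 5 NF-kB subunits tested, 3 were higher: Rel (c-Rel) by 1.90 ± 0.20 (adjusted p = 0.00111), Relb by 1.16 ± 0.22 (adjusted p = 0.0255) and Nfkb2 (p100) by 1.13 ± 0.19 (adjusted p = 0.0156). Relb and Nfkb2 missed the threshold without the BALBc/J KLA library (0.81 and 0.88) and also lost their calls without the BALBc/J untreated library (1.01 and 1.04). Rela, the gene of p65, had a fitted change of 0.47 ± 0.19 and Nfkb1 (p105) of -0.07 ± 0.18, and neither was called. Of 16 ubiquitin editors of the pathway, 5 were higher and none lower, led by Tnfaip3, the deubiquitinase A20, which was at 23147.5 and 21889.6 tags in KLA libraries and 890.4 and 1356 tags in untreated libraries, a change of 4.34 ± 0.19 (adjusted p = 8.77e-06). Tnip3, which binds A20, rose by 3.14 ± 0.18 (adjusted p = 3.37e-05), Trib1, a pseudokinase, by 2.24 ± 0.18 (adjusted p = 0.000228), and Traf1, a TNF receptor adaptor, by 1.99 ± 0.28 (adjusted p = 0.00631).

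Of 28 tested receptors, adaptors and kinases of the TLR4 pathway, upstream of these genes, 2 were higher and none lower. Over all genes tested, 1.82% were higher and 1.45% lower. The median change of the list was -0.12. Cd14, which passes lipid A to the receptor, was at 13525 and 26102 tags in KLA libraries and 1939 and 3890.5 tags in untreated libraries, a change of 2.77 ± 0.20 (adjusted p = 0.000117). Map3k8 (Tpl2), the kinase that couples IkB kinase to ERK, was at 867 and 826 tags in KLA libraries and 465 and 368 tags in untreated libraries, a change of 1.01 ± 0.19 (adjusted p = 0.0243), with a call lost without either untreated library (values 1.21 and 0.82). Tlr4 and Myd88, receptor and adaptor, had fitted changes of -0.24 ± 0.20 and 0.51 ± 0.18 and were not called.

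The promoters of 5 strongly rising genes and of 1 falling gene are shown because the motifs named above can be read in them. The sequences are from RefSeq on GRCm38.p6 and cover the 150 bases before the annotated start, 5′ to 3′ on the gene's strand. Capitals mark NF-kB motif matches (GGGNNNTTCC) in Cxcl2, Cxcl1 and Nfkbia, the CRE (TGACGTCA) in Dusp1 and the CArG box in Zfp36. Zfp319, a gene that fell, is given for comparison and holds no NF-kB match.
Cxcl2: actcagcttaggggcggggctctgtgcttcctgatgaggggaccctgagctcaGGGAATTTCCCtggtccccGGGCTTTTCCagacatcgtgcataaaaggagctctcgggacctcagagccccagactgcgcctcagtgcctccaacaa
Cxcl1: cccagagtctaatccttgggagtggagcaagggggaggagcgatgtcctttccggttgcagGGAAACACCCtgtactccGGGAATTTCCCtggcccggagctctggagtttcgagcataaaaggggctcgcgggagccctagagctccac
Nfkbia: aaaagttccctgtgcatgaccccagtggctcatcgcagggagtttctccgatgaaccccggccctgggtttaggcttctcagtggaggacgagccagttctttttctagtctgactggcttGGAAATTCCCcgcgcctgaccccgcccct
Dusp1: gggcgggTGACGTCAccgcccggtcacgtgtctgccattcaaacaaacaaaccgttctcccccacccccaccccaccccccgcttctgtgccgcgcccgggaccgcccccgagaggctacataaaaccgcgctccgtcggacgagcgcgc
Zfp36: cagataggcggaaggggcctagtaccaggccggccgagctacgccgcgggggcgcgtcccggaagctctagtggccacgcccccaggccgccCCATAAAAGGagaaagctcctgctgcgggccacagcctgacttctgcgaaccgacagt
Zfp319: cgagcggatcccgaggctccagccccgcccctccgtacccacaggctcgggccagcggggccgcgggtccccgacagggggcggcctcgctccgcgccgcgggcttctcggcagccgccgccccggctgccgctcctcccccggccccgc
The stretches lie at chr5:90903749-90903898, plus strand (Cxcl2), chr5:90891095-90891244, plus strand (Cxcl1), chr12:55492648-55492797, minus strand (Nfkbia), chr17:26508473-26508622, minus strand (Dusp1), chr7:28379229-28379378, minus strand (Zfp36) and chr8:95331812-95331961, minus strand (Zfp319).

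Motifs were searched on both strands from 250 bases before to 50 after the start. In Cxcl2 and Cxcl1 an NF-kB match on the plus strand overlaps one on the minus strand. Counted from the start of transcription, their first bases are at -97 and -96 in Cxcl2 and at -71 and -70 in Cxcl1. Another match lies near them in both genes. In Nfkbia the single match starts at -29. Of the 18 genes with a sequence among the 25 largest increases, 5 held the NF-kB motif (Cxcl2, Cxcl1, Nfkbia, Ifnb1 and Tnfaip3), 8 held TATAAA, 3 held the AP-1 site TGANTCA, 1 the CRE and 1 the CArG box. Of the 15 with a sequence among the 20 largest decreases, the NF-kB motif was in Zfp763, TATAAA and the AP-1 site in Zfp329 and the CArG box in Vamp1, and none held the CRE. Over 27025 RefSeq promoters, 5.52% held the NF-kB motif, 14.2% TATAAA, 7.93% the AP-1 site, 1.88% the CRE and 1.57% the CArG box. Over the 8584 tested genes with a sequence these shares were 6.24, 6.69, 4.97, 3.33 and 1.28%. Only 146 of the 195 genes called higher had a promoter sequence (74.9%), under the 80% set as a minimum, so a comparison of motif shares between the called groups is void and is not given. The 18 of 25 and 15 of 20 genes with a sequence fall under that minimum too, so their counts are a description only. A match describes letters in a window and is not a measured site.

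Binding of p65 itself was measured by ChIP-Seq after KLA for 1 hr, with 2 lists of peaks per strain. Among the genes called higher, 148 of 195 (75.9%) had a p65 peak within 1000 bp of the transcript start (mm9) in all 4 lists, against 49 of 155 genes called lower (31.6%) and 4237 of all 10715 genes tested (39.5%). The peak at Nfkbia had 1128 and 1647 tags in C57BL6/J and 1122 and 1227 tags in BALBc/J, the authors' own value per 10 M tags, and that at Cxcl2 had 753 and 918 tags in C57BL6/J and 711 and 741 tags in BALBc/J. At Egr1 the peak was weak, with 42.4 and 74.2 tags in C57BL6/J and 36.0 and 37.1 tags in BALBc/J. Of the 25 genes with the largest increases, 21 had such a peak in all 4 lists, and Dusp1, Il10 and Zfp36 had none in any list. With a peak in at least 1 list the shares within 1000 bp were 84.6% of the genes called higher, 74.2% of those called lower and 73.7% of all tested. In all 4 lists within 5000 bp they were 95.4% of the genes called higher, 49.7% of those called lower and 58.7% of all tested. Per the file headers, the input of C57BL6/J served for calling both lists of BALBc/J.

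The acetylation mark H3K27Ac, which lies at active promoters and enhancers, had 1 list per strain and treatment. A region lay within 1000 bp of the start in both strains after KLA for 93.3% of the genes called higher and without treatment for 76.4% of them. For the genes called lower the shares were 87.1% after KLA and 93.5% without treatment, and for all genes tested 82.1% and 83.5%. A region present in both strains with KLA and in neither without it was found at 19 of the 195 genes called higher (9.74%), among them Ifnb1 and Ptgs2, at none of the 155 called lower and at 100 of all tested (0.933%).

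Many immediate early transcription factors rose. Of 35 tested, 16 were higher and 1 lower, with a median change of 0.84. Egr1, a zinc finger factor switched on by ERK, was at 14122 and 10066 tags in KLA libraries and 211 and 239 tags in untreated libraries, a change of 5.67 ± 0.22 (adjusted p = 4.35e-06). Fos, a subunit of AP-1, was at 11428 and 10144 tags in KLA libraries and 701 and 694 tags in untreated libraries, a change of 3.93 ± 0.18 (adjusted p = 8.91e-06). Csrnp1, a nuclear protein of the immediate early class, and Nr4a1, the orphan receptor Nur77, rose by 4.12 ± 0.20 (adjusted p = 1.13e-05) and 3.91 ± 0.27 (adjusted p = 0.000107). In all 4 genes the libraries of the 2 treatments did not overlap. Junb, another AP-1 subunit, was at 28023 and 32039 tags in KLA libraries and 4174 and 5101 tags in untreated libraries, a change of 2.70 ± 0.16 (adjusted p = 4.08e-05). Myc, a transcription factor of cell growth, was at 1531 and 831 tags in KLA libraries and 210.5 and 215 tags in untreated libraries, a change of 2.35 ± 0.24 (adjusted p = 0.00102). Klf2, a zinc finger factor that restrains macrophage activation, rose by 2.98 ± 0.19 (adjusted p = 5.47e-05), and Maff, a small Maf protein, by 3.51 ± 0.18 (adjusted p = 1.55e-05). The single decrease was Hes1, a repressor downstream of Notch, at 9.01 and 23.5 tags in KLA libraries and 28.1 and 64.9 tags in untreated libraries, -1.08 ± 0.20 (adjusted p = 0.0231); it was not called relative to the median gene (-0.86) or without the BALBc/J untreated library (-0.94), while 3 members were called lower without the C57BL6/J KLA library and 2 without the BALBc/J KLA library.

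Several phosphatases that switch MAP kinases off also rose. Of 17 tested genes in a list of such phosphatases, Sprouty-type inhibitors and Gadd45g, 7 were higher and 1 lower. Dusp1, the phosphatase of p38 and JNK, was at 41464 and 36182 tags in KLA libraries and 1502 and 1282 tags in untreated libraries, a change of 4.79 ± 0.17 (adjusted p = 3.15e-06). Dusp2 and Dusp5, nuclear phosphatases that act on ERK, rose by 3.68 ± 0.18 (adjusted p = 1.12e-05) and 2.62 ± 0.21 (adjusted p = 0.000267). The 1 lower was Gadd45g, a stress protein that binds MAP kinase kinase kinases and is neither a phosphatase nor a Sprouty-type inhibitor. It was at 771 and 542 tags in KLA libraries and 2137 and 1461 tags in untreated libraries, a change of -1.44 ± 0.17 (adjusted p = 0.00255).

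Factors that destroy cytokine messages rose in 5 of 16 tested cases, while the median of the list was -0.13. Of all genes tested, 1.82% were higher, a share that also stands beside the SOCS count below. Zfp36 (tristetraprolin), which binds AU-rich elements of messages such as that of Tnf, was at 40047 and 33955 tags in KLA libraries and 2150.5 and 2103 tags in untreated libraries, a change of 4.11 ± 0.16 (adjusted p = 4.05e-06). Btg2 and Btg1, which recruit the deadenylase complex, rose by 2.86 ± 0.18 (adjusted p = 4.75e-05) and 1.72 ± 0.16 (adjusted p = 0.000657). Zc3h12a (Regnase-1), an endonuclease of cytokine messages, rose by 2.12 ± 0.19 (adjusted p = 0.000516). Socs3, which blocks signalling of interleukin 6 type receptors, was at 7244 and 6082 tags in KLA libraries and 309 and 326 tags in untreated libraries, a change of 4.34 ± 0.18 (adjusted p = 6.34e-06). Of 8 SOCS genes only Cish passed beside it, at 26.7 and 28.3 tags in KLA libraries and 3.66 and 4.27 tags in untreated libraries, a change of 1.42 ± 0.24 (adjusted p = 0.0156) with its call lost without the C57BL6/J untreated library (1.23).

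On the interferon branch, Ifnb1, the gene of interferon beta, was at 228 and 596 tags in KLA libraries and 1.26 and 0.542 tags in untreated libraries, a change of 5.12 ± 0.38 (adjusted p = 0.000135), where the untreated values stand for 2 reads and 1 read. Irf1, a transcription factor of interferon and NF-kB signalling, was at 8584 and 5157.5 tags in KLA libraries and 558 and 484 tags in untreated libraries, a change of 3.65 ± 0.23 (adjusted p = 4.75e-05), and was the only gene called of 14 interferon regulatory factors and STATs. Among 35 interferon-induced genes, 2 were higher (Isg15 and Gbp5) and none lower, against 1.82% higher and 1.45% lower of all genes tested. Isg15, a ubiquitin-like modifier, was at 257 and 603 tags in KLA libraries and 64.1 and 55.9 tags in untreated libraries, a change of 2.53 ± 0.37 (adjusted p = 0.00686). Gbp5, a guanylate-binding protein, was at 337 and 643 tags in KLA libraries and 94.5 and 124 tags in untreated libraries, a change of 2.01 ± 0.19 (adjusted p = 0.000705). The median of all 35 was 0.14. This count hung on single libraries, with 8 called without the C57BL6/J KLA library, 5 without the C57BL6/J untreated library, 4 without the BALBc/J untreated library and 7 relative to the median gene.

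Surface molecules of activation rose in 9 of 21 tested cases, with a median of 0.73 and none lower. Clec4e (Mincle), a receptor for mycobacterial cord factor, was at 4571 and 5210.2 tags in KLA libraries and 250.1 and 366 tags in untreated libraries, a change of 3.97 ± 0.18 (adjusted p = 8.91e-06). Cd83, a marker of activated antigen-presenting cells, rose by 3.08 ± 0.16 (adjusted p = 1.64e-05), Sdc4, a heparan sulfate proteoglycan, by 2.87 ± 0.21 (adjusted p = 0.000124). Icam1, the ligand of leukocyte integrins, rose by 2.39 ± 0.24 (adjusted p = 0.000861). Sele (E-selectin), best known from endothelium, rose by 2.62 ± 0.19 (adjusted p = 0.000124) at 64.1 and 66.5 tags in KLA libraries and 2.20 and 2.37 tags in untreated libraries. Gem, a small GTP-binding protein, was at 1519.5 and 2715 tags in KLA libraries and 47.8 and 106 tags in untreated libraries, a change of 4.64 ± 0.19 (adjusted p = 5.37e-06). Olr1 (LOX-1), a scavenger receptor of oxidised lipoprotein, was at 1292 and 1207 tags in KLA libraries and 34.9 and 37.4 tags in untreated libraries, a change of 4.77 ± 0.20 (adjusted p = 6.68e-06). Of 24 G-protein receptors and RGS proteins, 7 were higher, among them Gpr84, a receptor of medium-chain fatty acids, by 2.58 ± 0.25 (adjusted p = 0.000825), and Rgs1, which shortens G-protein signals, by 1.93 ± 0.19 (adjusted p = 0.00081). In the same list Cnr2, the cannabinoid receptor of immune cells, was lower at 190.1 and 155 tags in KLA libraries and 542 and 516 tags in untreated libraries, a change of -1.57 ± 0.19 (adjusted p = 0.00254). S1pr2, a receptor of sphingosine 1-phosphate, fell by 1.07 on the log2 scale, a call lost relative to the median gene (-0.85) and without either untreated library (-1.08 and -1.07).

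Among enzymes, Ptgs2 (cyclooxygenase-2), the inducible enzyme of prostaglandin synthesis, was at 1725 and 2632 tags in KLA libraries and 73.7 and 149.5 tags in untreated libraries, a change of 4.21 ± 0.18 (adjusted p = 6.37e-06), 1 of 2 called among 14 lipid mediator genes. The other was Ptger4, a receptor of prostaglandin E2, with a change of 1.13 ± 0.19 (adjusted p = 0.0128) and no call without either untreated library (1.07 and 1.20). Irg1, which makes itaconate, was at 4898 and 6898 tags in KLA libraries and 329 and 377 tags in untreated libraries, a change of 4.01 ± 0.18 (adjusted p = 8.91e-06), and Sod2, the mitochondrial superoxide dismutase, rose by 1.80 ± 0.18 (adjusted p = 0.000902). They were the only 2 called of 21 immunometabolic genes, where 4 were called relative to the median gene or without the C57BL6/J KLA library. Nlrp3, the sensor of the inflammasome, rose by 3.49 ± 0.17 (adjusted p = 1.43e-05) and Casp4, an intracellular receptor of lipopolysaccharide, by 1.57 ± 0.18 (adjusted p = 0.0021), the 2 called of 9 inflammasome genes. Of all genes tested, 1.82% were higher and 1.45% lower, which stands beside each list count in this paragraph. Among 19 survival genes, Phlda1 rose by 3.09 ± 0.26 (adjusted p = 0.00034), Cflar, an inhibitor of caspase-8, by 1.72 ± 0.21 (adjusted p = 0.00322) and Pim1, a kinase, by 1.44 ± 0.16 (adjusted p = 0.00172). This count was 9 relative to the median gene, 6 without the BALBc/J KLA library and 5 without the C57BL6/J KLA library or the BALBc/J untreated library. Among 19 heat shock and stress genes, Ppp1r15a (Gadd34), which directs removal of phosphate from eIF2 alpha, was at 7395 and 8736 tags in KLA libraries and 768 and 712 tags in untreated libraries, a change of 3.43 ± 0.19 (adjusted p = 2.37e-05). The cell cycle list, mostly uncalled, held 3 increases: Mki67 by 2.81 ± 0.22 (adjusted p = 0.000181), Plk2 by 2.21 ± 0.17 (adjusted p = 0.000201) and Cdkn1a (p21) by 1.35 ± 0.27 (adjusted p = 0.0304), the last of which missed the threshold without the C57BL6/J untreated library (0.99).

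Of 28 tested genes of macrophage identity, 1 was higher and 1 lower, against 1.82% and 1.45% of all genes tested. Tlr2 rose, at 1882 and 2491 tags in KLA libraries and 357 and 392 tags in untreated libraries with a change of 2.50 ± 0.18 (adjusted p = 0.000124). Cebpa, a lineage factor, fell, at 1338.5 and 1541 tags in KLA libraries and 3145 and 3181 tags in untreated libraries with a change of -1.13 ± 0.20 (adjusted p = 0.0165). Cebpa was not called relative to the median gene (-0.91) and lost its call when the C57BL6/J KLA library or either untreated library was left out (-0.94, -1.19 and -1.07). The median of the list was -0.10. None of 23 sterol and LXR genes, 12 reference genes, 48 cytosolic ribosomal protein genes or 7 small nucleolar RNA genes was called, and their medians were -0.35, 0.07, 0.05 and 0.24.

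**Figure D3:**
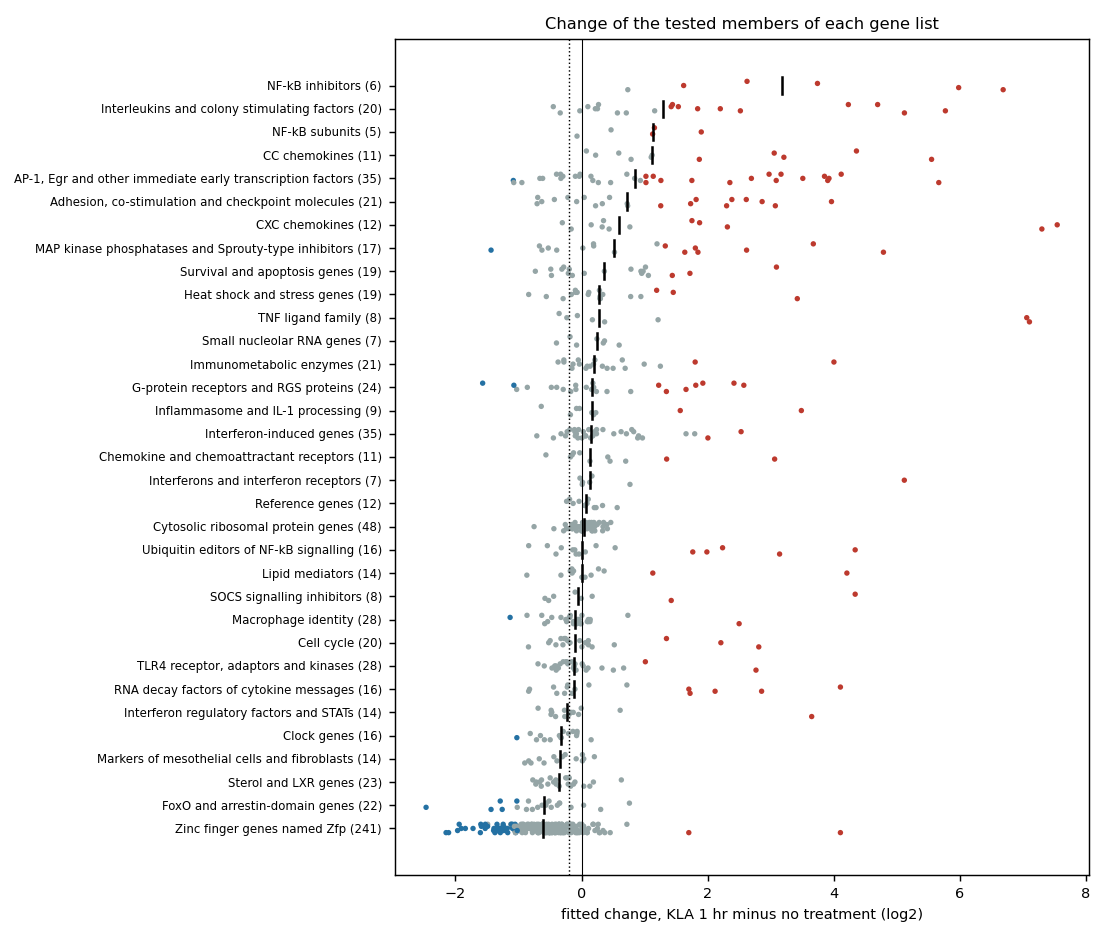
Fitted log2 change (KLA 1 hr minus no treatment) of every tested member of each gene list with at least 5 tested members, ordered by the list's median, with the number tested in brackets. Each point is a gene, red if called higher, blue if called lower and grey if not called, black bars are list medians and the dotted line is the median of all genes. The IkB family, labelled NF-kB inhibitors, stands highest with a median of 3.19 and Zfp genes lowest with -0.61.

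The largest decrease was that of Arrdc3, an arrestin-domain protein that guides receptors to degradation, at 345 and 111 tags in KLA libraries and 1307 and 988 tags in untreated libraries, a change of -2.47 ± 0.34 (adjusted p = 0.00575). It belongs to a list of 22 FoxO and arrestin-domain genes, of which 5 were lower and none higher, with a median of -0.60 (-0.38 relative to the median gene). Of all genes tested, 1.45% were lower and 1.82% higher. Like the other lists, it was chosen with earlier results of these data known, so its count is a description and no separate support. Tsc22d3 (GILZ), a glucocorticoid-induced leucine zipper protein, was at 275 and 334 tags in KLA libraries and 775 and 737 tags in untreated libraries, a change of -1.29 ± 0.19 (adjusted p = 0.00736). Arrdc2 was at 50.0 and 62.1 tags in KLA libraries and 160.4 and 135 tags in untreated libraries, a change of -1.26 ± 0.23 (adjusted p = 0.0201). The other members called were Gadd45g, given above, and Per1, a clock repressor that is also a glucocorticoid target, at 151 and 179.8 tags in KLA libraries and 312 and 383 tags in untreated libraries. Per1 changed by -1.03 ± 0.19 (adjusted p = 0.0208), was not called relative to the median gene (-0.81) and was the only call among 16 clock genes. Without the C57BL6/J untreated library the count of this list was 2 in place of 5, with Tsc22d3 at -1.19, Arrdc2 at -1.19 and Per1 at -1.08.

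Zinc finger genes made up much of the lower group. Of 241 tested genes named Zfp, 42 were lower (17.4%) and 2 higher, with a median change of -0.61, and -0.39 relative to the median gene with 27 lower. Many genes with this name encode DNA-binding proteins of the C2H2 class, many of them repressors; of the 2 that rose, Zfp36 and Zfp719, the first encodes an RNA-binding protein of another class. Zfp319 was at 24.2 and 25.3 tags in KLA libraries and 161 and 129 tags in untreated libraries, a change of -2.15 ± 0.22 (adjusted p = 0.0012). Zfp472 was at 19.2 and 22.8 tags in KLA libraries and 119.5 and 128 tags in untreated libraries, a change of -2.11 ± 0.19 (adjusted p = 0.000538). Zfp87 was at 33.3 and 34.4 tags in KLA libraries and 144 and 180.2 tags in untreated libraries, a change of -1.97 ± 0.19 (adjusted p = 0.000872), and its neighbour on chromosome 13, Zfp748, fell by 1.94 on the log2 scale. None of these genes overlapped between the treatments. The shares differed by level: among genes under 100 untreated tags 23.4% of 124 Zfp genes were called lower, against 1.45% of 2897 other genes, and at 100 tags or more 11.1% of 117 Zfp genes, against 0.937% of 7577 other genes. Reads of close relatives in zinc finger clusters cannot be fully told apart. The count was 66 without the C57BL6/J KLA library, 28 without the C57BL6/J untreated library, 6 with a pseudocount of 50 in place of 10, 7 with no filter on low levels and 14 of 118 with a filter of 100 tags.

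Counting all names that begin with Zfp, Zbtb, Zscan or Zkscan, 53 of the 155 genes called lower (34.2%) carried one, against 289 of the 10715 tested. Others of the 20 largest decreases were Ier5l, at 33.5 and 55.6 tags in KLA libraries and 246 and 209.8 tags in untreated libraries with a change of -2.15 ± 0.23 (adjusted p = 0.00157), Vamp1 and Sik1. Vamp1, a vesicle fusion protein, was at 5.29 and 3.50 tags in KLA libraries and 53.5 and 40.7 tags in untreated libraries with a change of -1.98 ± 0.21 (adjusted p = 0.00136). Sik1, a salt-inducible kinase, was at 108 and 24.8 tags in KLA libraries and 433 and 106 tags in untreated libraries with a change of -1.82 ± 0.36 (adjusted p = 0.0291). In tags, the 4 largest losses were those of Cebpa, which fell by 1723 tags on average, D4Wsu53e, which fell by 1582, Gadd45g, which fell by 1142, and S1pr2, which fell by 1080.1, small amounts beside the 22105 to 77954 tags that each of the 10 largest gains brought.

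Both groups of called genes had shorter genomic spans than the genes tested as a whole, which the rule did not use. Genes called higher spanned a median of 7261 bases of genome (quartiles 2979 and 15478) and those called lower 7613 (quartiles 4174 and 12632), against 21494 for all genes tested (quartiles 9194 and 49453). Their mature transcripts had a median length of 2203 bases if higher and 3463 if lower, against 2842 for all tested. Median untreated levels, which enter the fitted change, were 205 tags for genes called higher and 110 for those called lower, against 235 for all tested.

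Nascent RNA, measured by GRO-Seq in 4 other libraries of the same strains and treatments, gave a separate readout. GRO-Seq called 391 of 9121 tested genes higher (4.29%) and 1413 lower (15.5%), with a median change of -0.34; relative to the median gene these counts were 619 and 638. Of the 175 RNA-Seq genes called higher and tested in both assays, 127 were called higher in GRO-Seq (72.6%), and these were 35.2% of the 361 genes called higher there. Of the 139 called lower and tested in both, 42 were called lower in GRO-Seq (30.2%), or 3.29% of the 1278 called lower there, against 15.2% of all genes tested in both. The share of GRO-Seq tags in exons was 7.41 and 9.03% in KLA libraries and 9.86 and 9.00% in untreated libraries, and its part in these counts was not tested.

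Nascent changes ran from far above to below the changes of the mature RNA. Il1b, Irg1 and Gbp5 changed by 6.34 ± 0.33, 5.87 ± 0.31 and 5.18 ± 0.35 in GRO-Seq, against 5.78, 4.01 and 2.01 in RNA-Seq. Egr1 and Zfp36 changed by only 1.01 ± 0.33 and 1.14 ± 0.30 in GRO-Seq, against 5.67 and 4.11 in RNA-Seq. Rgs1, Gdf15 and Plk2 had no call in GRO-Seq, with -0.05 ± 0.28, 0.12 ± 0.35 and 0.50 ± 0.26, against 1.93, 3.37 and 2.21 in RNA-Seq. The decrease of Arrdc3 was of like size in both, -2.33 ± 0.36 in GRO-Seq and -2.47 ± 0.34 in RNA-Seq, while Zfp319 stood at -0.04 ± 0.36 in GRO-Seq and -2.15 ± 0.22 in RNA-Seq. Of the other Zfp genes among the 20 largest decreases, Zfp763 (-1.50 ± 0.25), Zfp128 (-1.49 ± 0.33), Zfp329 (-1.22 ± 0.34) and Zfp39 (-1.10 ± 0.33) were called lower in GRO-Seq too. Zfp472, Zfp87, Zfp748 and Zfp870 were not called there. With a pseudocount of 50 Zfp763 (-0.61), Zfp128 (-0.74), Zfp329 (-0.87) and Zfp39 (-0.57) lost their nascent calls. Relative to the median gene Zfp329 (-0.86) and Zfp39 (-0.75) were not called either. Of 206 Zfp genes tested in GRO-Seq, 56 were lower and 3 higher, with a median of -0.60, against 15.5% lower and a median of -0.34 over all genes tested there. Of 27 genes of macrophage identity tested there, 10 were lower and 2 higher, with a median of -0.94.

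In 4 genes the calls of the assays were opposite. Fos had 62.3 and 82.1 GRO-Seq tags in KLA libraries and 169 and 159 in untreated libraries, a nascent change of -1.09 ± 0.34 (adjusted p = 0.00685), while its RNA-Seq level rose. Jun had 104 and 149 GRO-Seq tags in KLA libraries and 296 and 370.0 in untreated libraries, a nascent change of -1.35 ± 0.32 (adjusted p = 0.00021), against 1.26 ± 0.19 (adjusted p = 0.00795) in RNA-Seq at 7598 and 6511 tags in KLA libraries and 3387 and 2535 tags in untreated libraries. Map3k8 had 47.7 and 65.4 GRO-Seq tags in KLA libraries and 154 and 179 in untreated libraries, a nascent change of -1.42 ± 0.34 (adjusted p = 0.000329). Nascent RNA of these 3 genes was lower in the KLA library of each strain, at a time when their polyadenylated RNA was higher. Phf13, a chromatin-binding PHD finger protein, was the reverse, with 42.4 and 74.7 GRO-Seq tags in KLA libraries and 25.2 and 21.0 in untreated libraries (change 1.01 ± 0.35), against 47.0 and 76.3 tags in KLA libraries and 225 and 249 tags in untreated libraries in RNA-Seq, a change of -1.81 ± 0.20 (adjusted p = 0.00177). Map3k8 kept its nascent call under both alternatives run, but its RNA-Seq call was lost without either untreated library, as given above. The other nascent calls did not all hold: relative to the median gene Fos (-0.74) and Jun (-0.99) were not called, with a pseudocount of 50 Fos (-0.81) and Phf13 (0.56) were not, and Jun lost its RNA-Seq call without the BALBc/J untreated library (1.07).

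**Figure D4:**
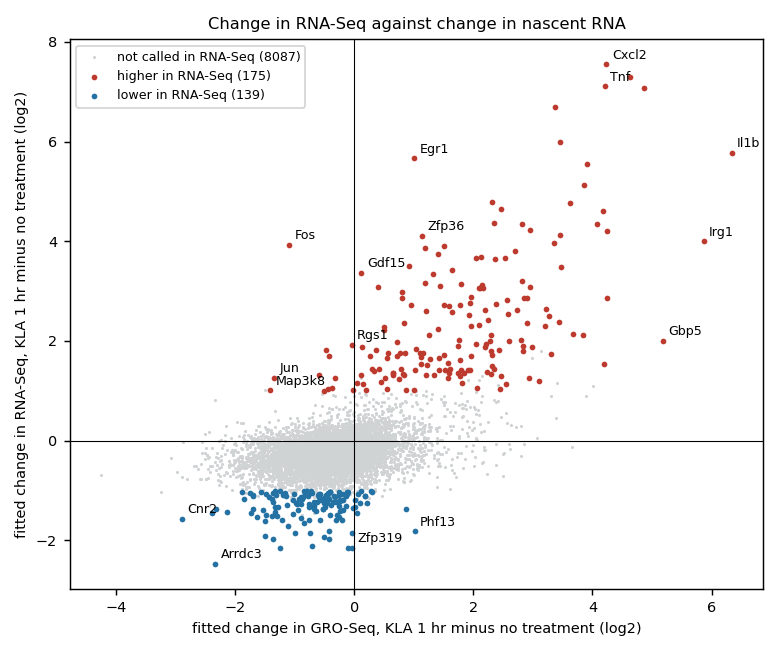
Fitted log2 change in RNA-Seq (vertical axis) against that in GRO-Seq (horizontal axis), both KLA 1 hr minus no treatment, for the genes tested in both assays. Each point is a gene, red for the 175 called higher and blue for the 139 called lower in RNA-Seq; Fos, Jun and Map3k8 lie at upper left and Phf13 at lower right, where the directions differ.

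The levels at 4 hr, from 1 further library per strain, divided the genes that were high at 1 hr. These genes were chosen on their 1 hr values, and both times share the untreated libraries, so the counts are a description. Of the 195 called higher, 95 had both 4 hr libraries below both 1 hr libraries, 73 had both above and 27 overlapped, against 4889, 2128 and 3698 of all 10715 genes tested. Of those 95, 55 were still above both untreated libraries at 4 hr, 25 were below both and 15 overlapped them. Among the 4889 of all genes tested, these counts were 71, 4526 and 292. Fos was at 701 and 694 tags without treatment, 11428 and 10144 tags at 1 hr and 349 and 256 tags at 4 hr. Egr1 was at 211 and 239 tags without treatment, 14122 and 10066 tags at 1 hr and 189 and 226 tags at 4 hr. Nr4a1 was at 179.6 and 248 tags without treatment, 2869 and 3819 tags at 1 hr and 35.7 and 19.9 tags at 4 hr. Fos and Nr4a1 thus stood lower at 4 hr than without treatment in both strains, and the 4 hr libraries of Egr1 overlapped the untreated ones.

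Nfkbia and Cxcl2 stood lower at 4 hr than at 1 hr in both strains. Nfkbia was at 698 and 704 tags without treatment, 42196 and 48102 tags at 1 hr and 16292 and 13027.5 tags at 4 hr. Cxcl2 was at 267 and 297 tags without treatment, 53424.5 and 55922.5 tags at 1 hr and 10462 and 5823 tags at 4 hr. Both kept a level far above the untreated one in either strain. Irg1 was at 329 and 377 tags without treatment, 4898 and 6898 tags at 1 hr and 64307 and 61000.5 tags at 4 hr. Cxcl10 was at 317 and 227 tags without treatment, 1619 and 1169 tags at 1 hr and 67449 and 24467 tags at 4 hr. In these genes the 4 hr libraries stood above the 1 hr libraries of both strains. Gbp5 was at 94.5 and 124 tags without treatment, 337 and 643 tags at 1 hr and 16418.5 and 24716 tags at 4 hr. Nfkb2 was at 425 and 435 tags without treatment, 804 and 1128 tags at 1 hr and 6445 and 6109 tags at 4 hr.

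Of the 155 genes called lower, also chosen on their 1 hr values, 83 had both 4 hr libraries above both 1 hr libraries. In 33 both were below and 39 overlapped, against 2128, 4889 and 3698 of all tested for above, below and overlapping. Set against the untreated libraries, 131 of the 155 had both 4 hr libraries below both, 15 overlapped and 9 were above. Over all tested these counts were 6347, 2727 and 1641. Arrdc3 was at 1307 and 988 tags without treatment, 345 and 111 tags at 1 hr and 66.5 and 69.9 tags at 4 hr. Cnr2 was at 542 and 516 tags without treatment, 190.1 and 155 tags at 1 hr and 9.22 and 6.35 tags at 4 hr. Zfp319 was 1 of the 9, at 161 and 129 tags without treatment, 24.2 and 25.3 tags at 1 hr and 196 and 269.6 tags at 4 hr, so that its 4 hr level exceeded the untreated one in both strains.

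**Figure D5:**
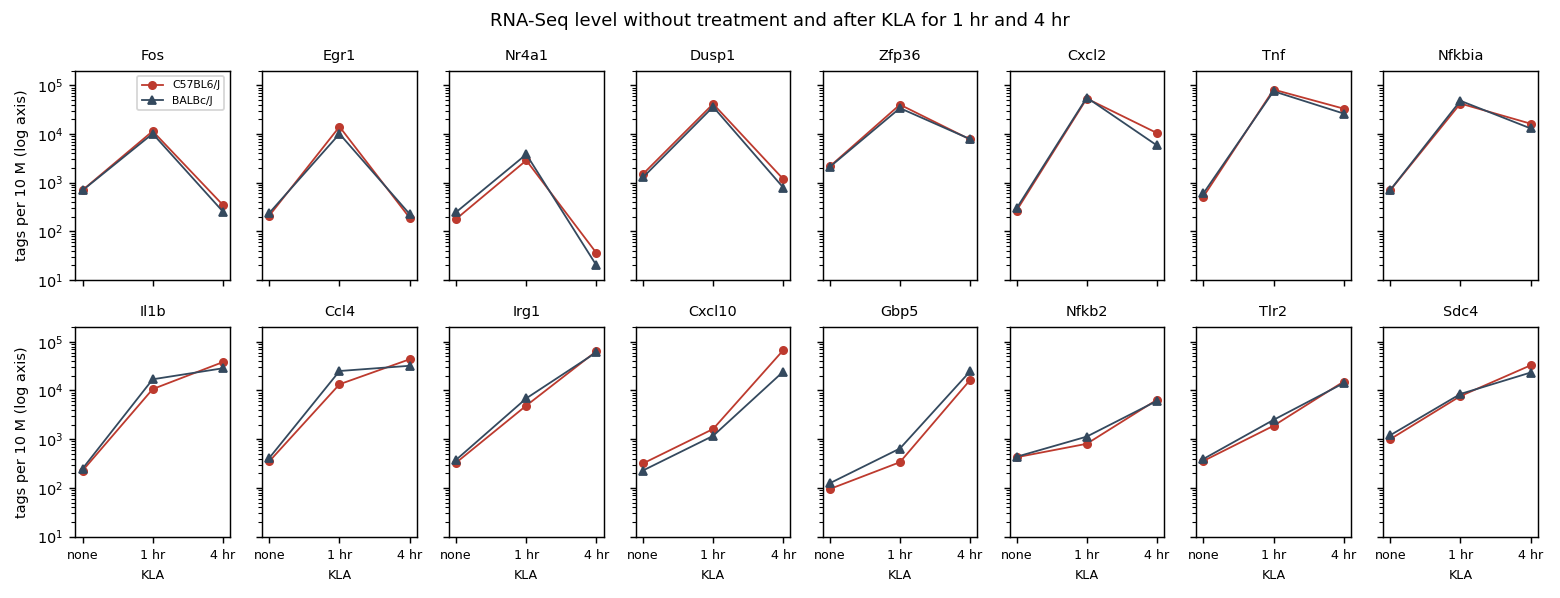
RNA-Seq level of 16 named genes without treatment and after KLA for 1 hr and 4 hr, in tags per 10 M on a log axis, with 1 library per point and a line per strain. In the upper row the level peaks at 1 hr, as in Fos (11428 tags in C57BL6/J at 1 hr and 349 at 4 hr), and in the lower row it is highest at 4 hr, as in Irg1 (4898 and 64307 tags).

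The responses of the strains are set side by side, since 1 library per strain and treatment leaves no test of their difference. The response in C57BL6/J minus that in BALBc/J, on the log2(tags + 10) scale, had a median of 0.03 in the genes called higher and 0.04 in those called lower, against 0.06 for all genes tested. It was over 1 either way in 8 of 195 genes called higher, 2 of 155 called lower and 42 of all 10715. Gdf15, a stress cytokine of the TGF-beta superfamily, was at 15809 and 504 tags in KLA libraries and 851 and 78.8 tags in untreated libraries, a response of 4.20 in C57BL6/J and 2.53 in BALBc/J. Its untreated level was itself higher in C57BL6/J. Csf3, the gene of the granulocyte growth factor G-CSF, leaned the other way at 17.9 and 118 tags in KLA libraries and 4.33 and 9.41 tags in untreated libraries, a response of 0.96 in C57BL6/J and 2.73 in BALBc/J. Ifnb1 responded by 4.40 in C57BL6/J and 5.85 in BALBc/J, Isg15 by 1.85 in C57BL6/J and 3.22 in BALBc/J and Hbegf, a ligand of the EGF receptor, by 1.08 in C57BL6/J and 2.32 in BALBc/J. The response of Arrdc3 was -1.89 in C57BL6/J and -3.04 in BALBc/J, that of Myc 2.81 in C57BL6/J and 1.90 in BALBc/J. C5ar1 was at 5384 and 917 tags in KLA libraries and 2349 and 316 tags in untreated libraries: its level differed between strains more than between treatments, but the response was 1.19 in C57BL6/J and 1.51 in BALBc/J.

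Mir221 and Mir21 are listed by their hairpin, so that tags there come from longer polyadenylated transcripts and are not mature microRNA. Of 22 tested genes named Mir, which include the host gene Mir17hg, Mir221 and Mir21 were higher and none was lower. Of all genes tested, 1.82% were higher and 1.45% lower. Mir221 and Mir21 were singled out after their values were seen. Mir221 (mm9 chrX:18723419-18723514) was at 116 and 106 tags in KLA libraries and 0.57 and 3.28 tags in untreated libraries, a change of 3.35 ± 0.22 (adjusted p = 6.09e-05); its untreated values stand for 0 and 6 reads. Mir21, which overlaps Vmp1, was at 32.2 and 40.0 tags in KLA libraries and 5.57 and 8.32 tags in untreated libraries, a change of 1.44 ± 0.21 (adjusted p = 0.00736), and tags of Vmp1 cannot be told apart from it. The mature sequences of both arms (RefSeq, GRCm38.p6) are given because the microRNA, not the measured transcript, acts through its seed, bases 2 to 8, in capitals.
mmu-miR-221-3p: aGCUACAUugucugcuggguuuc
mmu-miR-221-5p: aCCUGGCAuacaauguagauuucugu
mmu-miR-21a-5p: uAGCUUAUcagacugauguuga
mmu-miR-21a-3p: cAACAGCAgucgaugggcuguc
The 4 arms share no seed.

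Near the threshold the calls turned on small differences. The called genes closest to a change of 1 were Sgk1 (1.01), Chka (1.01) and Gp49a (1.01), and the closest below it with an adjusted p under 0.05 were Rabgef1 (0.998), Gch1 (0.995) and Bcl2l11 (0.978). On the other side B3gnt7 (-1.0001), Peo1 (-1.0015) and Tmem140 (-1.0016) were called, and Med22 (-0.996), Col18a1 (-0.995) and Zswim3 (-0.995) were not. In all, 453 genes had an adjusted p under 0.05, of which 350 passed the threshold of 1, 21 had a smaller increase and 82 a smaller decrease.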

How the data were processed

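RNA-Seq and GRO-Seq values are the authors' log2 of 1 plus exon tags per 10 M tags, per the file headers, after alignment with Bowtie 0.12.7 and HOMER on mm9, per the submitters' processing notes. On the linear scale they hold whole reads plus a random part under 1 read (0.52 to 0.59 tags in these 4 libraries). Tags were obtained by raising 2 to the value and subtracting 1. The transcript with the highest RNA-Seq mean stood for each symbol, and 21 transcripts without a symbol were left out. limma 3.58.1 in R 4.3.3 (eBayes with trend) fitted treatment and strain over 6 RNA-Seq libraries (residual df 2) and, apart, 4 GRO-Seq libraries (residual df 1, infinite prior df). The fit was run on simulated data with an additive strain effect. These data held no difference of response between strains and no shift of the median gene, so that run does not bear on either. The signal of p65 and H3K27Ac lists is the authors' tag value per peak, called by HOMER on each sample alone, per the file headers; the other peak lists were not used here. Named genes were those with the 25 largest increases and 20 largest decreases, up to 4 called per list and direction, the 10 largest gains and losses in tags, the 5 largest strain differences each way, those at the threshold and the markers; uncalled list members, Il6, Csf2, Klf2, Maff, Icam1, the Mir genes and genes with opposite GRO-Seq calls were named after their values were seen. Members and lists were chosen with earlier results of these data known. Depth is 17.0 to 20.3 M tags per RNA-Seq library and 39.4 to 48.3 M per GRO-Seq library, and counts of peaks or genes carry no counting interval here.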

Additional observations from a re-analysis of the deposited data

How the results depend on the processing

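The count of genes higher in RNA-Seq, 195, lay within 1.5 times of itself under every alternative run (132 to 242). The count lower, 155, was 38 with a pseudocount of 50, 32 with no filter (22865 genes), 76 with a filter of 100 tags, 77 with libraries centred on their median gene and 47 with no replicate block, that is without the strain term that makes the comparison paired (132 higher). Leaving out 1 of the 4 libraries gave 77 to 574 lower and 179 to 224 higher. A lone library is then assumed to vary like the others. In GRO-Seq, centring gave 619 higher and 638 lower, and a pseudocount of 50 gave 221 and 329, in place of 391 and 1413. Within 5000 bp, 95.4, 49.7 and 58.7% of genes higher, lower and tested had p65, and 84.6 and 85.7% of all tested had H3K27Ac with and without KLA. Without the block, 5 interleukins, 3 CXC chemokines, 4 increases of the MAP kinase phosphatase list, 1 NF-kB subunit, 1 heat shock gene, 1 FoxO gene and 17 Zfp genes passed, in place of 10, 5, 7, 3, 3, 5 and 42. The cause of these differences was not tested. Of 123 named and called genes, 72 kept their call under every alternative run in which they were tested, including all 25 largest increases and 9 of the 20 largest decreases. No fitted change turned its sign. With the filter of 100 tags only 107 of the 123 were tested. With no filter, 130 of 133 higher and 30 of 32 lower genes were also called with it. At 0 reads the deposited values hold only their random part, so levels there cannot be compared.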
